A study of Homo sapiens with 3 samples.

Results

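TAC1, PENK, GAL, CALB2 and STMN4, 5 of the 33538 genes in the deposited tables, were followed in the chromogranin A (CHGA) expressing cells of a stem cell differentiation toward pancreatic beta cells. A cell counted as CHGA-high when at least 10 of every 10,000 of its UMIs (unique molecular identifiers, each standing for 1 captured RNA molecule) came from CHGA, a granule protein gene of endocrine and neuroendocrine cells. By this rule 1407 of 7969 WT cells, 538 of 7791 HET cells and 980 of 8082 KO cells were CHGA-high. The 5 genes were picked by name with their levels by library already known, so those levels are given as a description.

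The study profiled cells of the established human embryonic stem cell line H1 after differentiation into cells labelled as beta cells, by droplet single-cell RNA sequencing on the 10x Genomics Chromium platform. WT cells were unedited, HET cells carried the genotype PAX6+/- and KO cells PAX6-/-; PAX6 is a transcription factor of the eye, brain and islet. Not given in the sources used here are the place of the PAX6 lesion and whether a library holds 1 clone or 1 differentiation. With a single library per genotype, library and genotype cannot be told apart, no difference between them has a replicate check, and every interval below covers counting error only.

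Neuropeptides are made as long precursors, cut by prohormone convertases inside dense-core granules and released to act on receptors of nearby cells. TAC1 encodes the precursor of substance P and neurokinin A, PENK that of the enkephalins, and GAL that of galanin, a peptide that inhibits insulin secretion. CALB2 encodes calretinin, a calcium-binding protein of many neurons, and STMN4 a neuronal stathmin that binds tubulin. In the gut, substance P is found in some enterochromaffin cells, which make serotonin with TPH1, and enkephalin in enteric neurons; PHOX2A is a transcription factor of autonomic neurons.

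CHGA-high cells made up 17.7% of the WT library (95% exact binomial interval 16.8 to 18.5), 6.91% of the HET library (6.35 to 7.49) and 12.1% of the KO library (11.4 to 12.9). Their summed depth was 18495208 UMIs in WT, 7380626 in HET and 11907210 in KO. Their median depth per cell was nearly level, at 12467, 12508.5 and 12224.5 UMIs, while the median mitochondrial share of UMIs was 6.55%, 8.61% and 9.26%. All 11 general endocrine markers, CHGA among them by definition, were detected in the CHGA-high cells of each library. Of 7 beta cell markers, G6PC2 was at 0 in KO and none was at 0 in WT or HET. Cells with at least 50 INS UMIs per 10,000 (INS-high) were 42.1% of CHGA-high cells in WT, 38.5% in HET and 11.4% in KO, so most CHGA-high cells of each library did not reach this level of the beta cell hormone. GCG-high cells, by the same rule for glucagon, were 31.0%, 24.2% and 3.37%, and GHRL-high cells, for ghrelin, were 2.13%, 7.99% and 14.6%. Such classes are ranges along a continuum and overlap: 160 WT, 55 HET and 56 KO cells lay between 50 and 100 INS UMIs per 10,000, just inside the INS limit. The summed mesenchyme markers (COL1A1, COL1A2, COL3A1, VIM and DCN) also differed, at 1102 CPM in WT, 582 in HET and 421 in KO. CPM are counts of pooled UMIs scaled to a common total. The sum was not split by gene, and in WT cells with at least 2 TAC1 UMIs it came from VIM alone (2062 CPM). All 5 of these markers were detected in the CHGA-high cells of each library. Since the sum was not split, it is not read here as a measure of mesenchymal cells. The part of these markers in the values below was not tested.

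The 5 genes were carried by a large minority of CHGA-high cells. A carrier was a cell with at least 2 UMIs of the gene, and 44.7% of WT (42.1 to 47.3), 42.0% of HET (37.8 to 46.3) and 41.5% of KO CHGA-high cells (38.4 to 44.7) carried at least 1 of the 5. Most of these carried a single one: 486 WT, 182 HET and 311 KO cells carried 1 gene, and 125, 41 and 80 carried 2. No cell carried all 5, and the 3 cells that carried 4 were WT cells. Among PHOX2A carriers the share with at least 1 of the 5 was 65% in WT, 63.4% in HET and 72.3% in KO. Among TPH1 carriers it was 50.8%, 52.5% and 52.2%, and in cells that carried neither gene 42.0%, 39.0% and 32.5%. Carriers also differed in depth from the other CHGA-high cells: in WT the median was 14678.5 UMIs in GAL carriers against 12039, and 14515 in PENK carriers against 12301.5, but 11876.5 in STMN4 carriers against 12520. The part of depth in these shares was not tested. For each gene, its share of all CHGA-high cells at a common depth is given below. Shares within a class are at full depth unless said to be thinned.

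**Figure D1:**
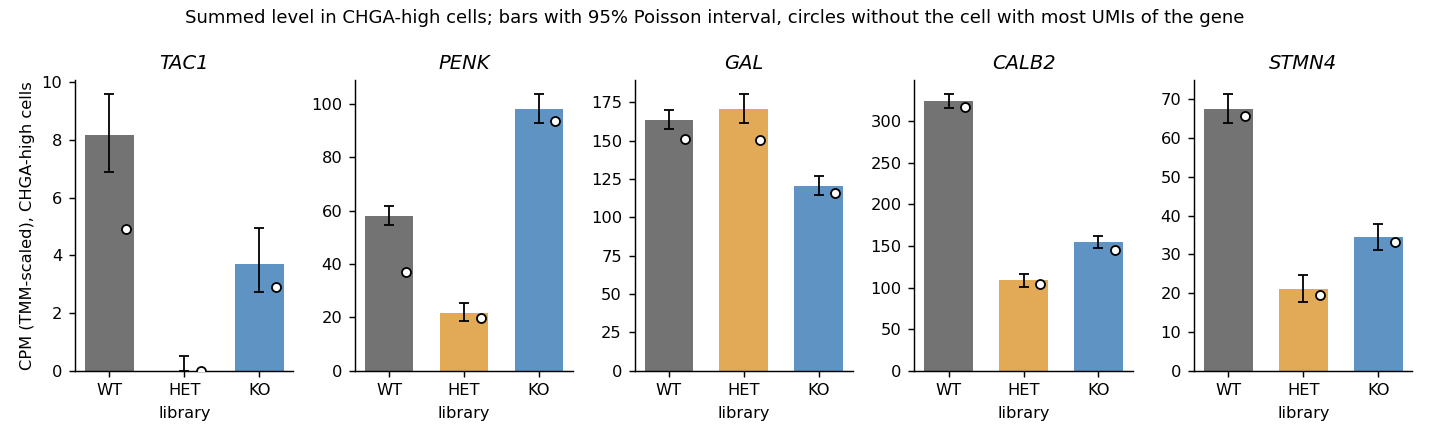
Summed level of each gene in CHGA-high cells of the WT, HET and KO libraries, in TMM-scaled CPM on a linear axis from 0, with a separate scale per gene. Bars show the level with its 95% exact Poisson interval and white circles the level without the 1 cell that held the most UMIs of that gene; HET is lowest for 4 genes and KO for GAL.

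TAC1 (chromosome 7, 97731908 to 97740472, plus strand; GENCODE 29 on GRCh38, as for all positions here) was carried by very few cells. Its level in CHGA-high cells, as CPM scaled by TMM factors, was 8.17 CPM in WT (6.90 to 9.61; 146 UMIs), 0 in HET and 3.71 CPM in KO (2.72 to 4.95; 46 UMIs). WT had 9 carriers and KO 6, while no HET cell held a single UMI. A count of 0 among 538 HET cells allows a share of up to 0.558% by a limit of 3 counts, or 0.683% by the exact binomial interval. Carriers were 0.640% of WT and 0.612% of KO cells, between these limits, so carrier shares do not clearly separate HET. Cells with at least 1 TAC1 UMI were 1.42% in WT and 1.84% in KO, above both limits. By summed UMIs, the HET level was at least 19.97-fold lower than WT and at least 9.07-fold lower than KO. These bounds set the pooled HET cells at a floor of 3 counts (0.409 CPM). They take UMIs as independent, although a few cells held most of them.

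A handful of cells set these sums. One WT cell held 58 of the 146 WT UMIs, and without it the WT level was 4.93 CPM, so the bound on the HET difference rests in good part on that cell. KO was 2.20-fold lower than WT (1.57 to 3.14), or 1.70-fold lower with the highest cell left out of each library. With the cells of high doublet score kept, the UMIs were 150 in WT, 5 in HET and 116 in KO, and the log2 ratio of KO to WT turned from -1.14 to 0.19. Under stricter cell filters (3000 UMIs or more, a mitochondrial share up to 10%) they were 54, 0 and 12 (3.49, 0 and 1.69 CPM). The median mitochondrial share was 8.09% in WT and 12.0% in KO TAC1 carriers, against 6.54% and 9.25% in the other cells, and its part in these values was not tested. In cells with no CHGA UMI, TAC1 stood at 0.175 CPM in WT, 0.255 in HET and 0.143 in KO, so HET cells did hold TAC1 UMIs, 31 in all, outside the CHGA-high range. With each cell thinned to 3000 UMIs and 1 UMI required, TAC1 was seen in 0.766%, 0% and 0.561% of CHGA-high cells, against 0.101%, 0.0652% and 0% of cells with no CHGA.

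TAC1 lay mostly with TPH1, and in part with PHOX2A. In WT 6 of the 9 TAC1 carriers also carried TPH1, and in KO 5 of 6 did, whereas TPH1 carriers were 8.53% of all WT and 27.6% of all KO CHGA-high cells. TPH1 carriers held 80.8% of the WT and 82.6% of the KO TAC1 UMIs. PHOX2A was carried by 4 of the 9 and 4 of the 6, against 11.4% of all WT and 21.0% of all KO CHGA-high cells. Cells with both TPH1 and PHOX2A accounted for 3 carriers in each library. None of the TAC1 carriers was INS-high or GCG-high, and INS itself was at 0 in the pooled KO carriers. The summed enterochromaffin markers (TPH1, SLC18A1, FEV, LMX1A and DDC) reached 2607 CPM in the WT carriers and 4945 CPM in the KO carriers, against 574 and 1311 CPM in the other CHGA-high cells. The summed autonomic neuron markers were also higher, at 747 CPM in WT and 719 in KO TAC1 carriers, against 337 and 485 in the others. Of these 8 markers, 2 were at 0 in the WT carriers and 5 in the KO carriers. Conversely, TAC1 was carried by only 5.00% of WT and 1.85% of KO TPH1 carriers, and by 0 of the 59 in HET.

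PENK (chromosome 8, 56436674 to 56446734, minus strand, overlapped by the antisense gene AC012349.1) was lowest in HET and highest in KO. Its level was 58.0 CPM in WT (54.6 to 61.7; 1037 UMIs), 21.8 CPM in HET (18.6 to 25.5; 160 UMIs) and 98.2 CPM in KO (92.8 to 104; 1218 UMIs). A single WT cell, a carrier of both TPH1 and PHOX2A, held 374 of the 1037 WT UMIs. PENK reached 50% of its UMIs in 3 WT cells (374, 104 and 90 UMIs), 7 HET cells and 16 KO cells. No ratio was computed without all 3 of these WT cells. HET was 2.66-fold lower than WT (2.25 to 3.16) and 1.87-fold lower without the highest cell of each library. KO was 1.69-fold higher than WT (1.56 to 1.84), and 2.52-fold higher without those cells. With TPH1 carriers, PHOX2A carriers and other cells weighing the same, the log2 ratio was -0.07. These carrier classes overlap, so the WT cell with 374 UMIs counted in both. It held 374 of the 410 PENK UMIs of WT TPH1 carriers and 374 of the 814 of WT PHOX2A carriers. This weighting was not run without that cell. HET was 4.50-fold lower than KO (3.81 to 5.34), where no single cell weighed so much. Whether counting used the strand is not given in the sources used here, and without strand the reads of PENK and its antisense partner cannot be told apart.

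The share of PENK carriers did not separate WT from HET as the level did. It was 4.19% of CHGA-high cells in WT (3.21 to 5.38), 3.90% in HET (2.43 to 5.90) and 8.88% in KO (7.17 to 10.8), so WT and HET differed by less than the counting error. Cells with no CHGA UMI, of similar median depth (13378, 12870.5 and 14359 UMIs), carried PENK in 1.23%, 0.767% and 1.97% of cases. Thinned to 3000 UMIs, the CHGA-high shares were 3.60%, 3.85% and 8.08%, and those without CHGA 0.856%, 0.782% and 1.62%. The median carrier held 2.90 PENK UMIs per 10,000 in WT, 4.35 in HET and 6.41 in KO.

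PENK lay mostly with PHOX2A. PHOX2A was carried by 34 of the 59 WT PENK carriers (57.6%), 15 of the 21 in HET (71.4%) and 76 of the 87 in KO (87.4%), against 9.35%, 10.8% and 14.6% of the cells without PENK. In the other direction 21.2% of WT, 21.1% of HET and 36.9% of KO PHOX2A carriers carried PENK, against 1.71%, 1.40% and 0.825% of cells with neither TPH1 nor PHOX2A. TPH1 was carried by 16.9% of PENK carriers in WT, 28.6% in HET and 54.0% in KO, against 8.16%, 10.3% and 25% of the cells without PENK. Both TPH1 and PHOX2A were carried by 8.47%, 28.6% and 47.1% of PENK carriers. Among TPH1 carriers without PHOX2A, 5 of 76 in WT, 0 of 39 in HET and 6 of 168 in KO held PENK.

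Within PHOX2A carriers that lacked TPH1, a class that does not include the WT cell with 374 UMIs, PENK stood at 263, 122 and 367 CPM in WT, HET and KO. In WT, 1 other cell held 104 of the 423 PENK UMIs of this class. HET was lowest in this class. It was also lowest in cells with both genes, at 629, 79.7 and 424 CPM, where WT includes the cell with 374 UMIs. In TPH1 carriers without PHOX2A, PENK stood at 16.7, 1.62 and 14.2 CPM. HET was not lowest in every class: in cells with neither gene PENK stood at 14.1, 10.01 and 3.84 CPM. In INS-high cells it stood at 0.636, 3.73 and 11.3 CPM. The summed autonomic neuron markers were 1405 CPM in WT PENK carriers, 1601 in HET and 1824 in KO, against 276, 257 and 330 in the remaining CHGA-high cells. Of those 8 markers HAND2 and PRPH were at 0 in the HET and KO carriers, and none was at 0 in WT. INS-high cells among the PENK carriers numbered 0 in WT, 2 in HET and 2 in KO.

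**Figure D2:**
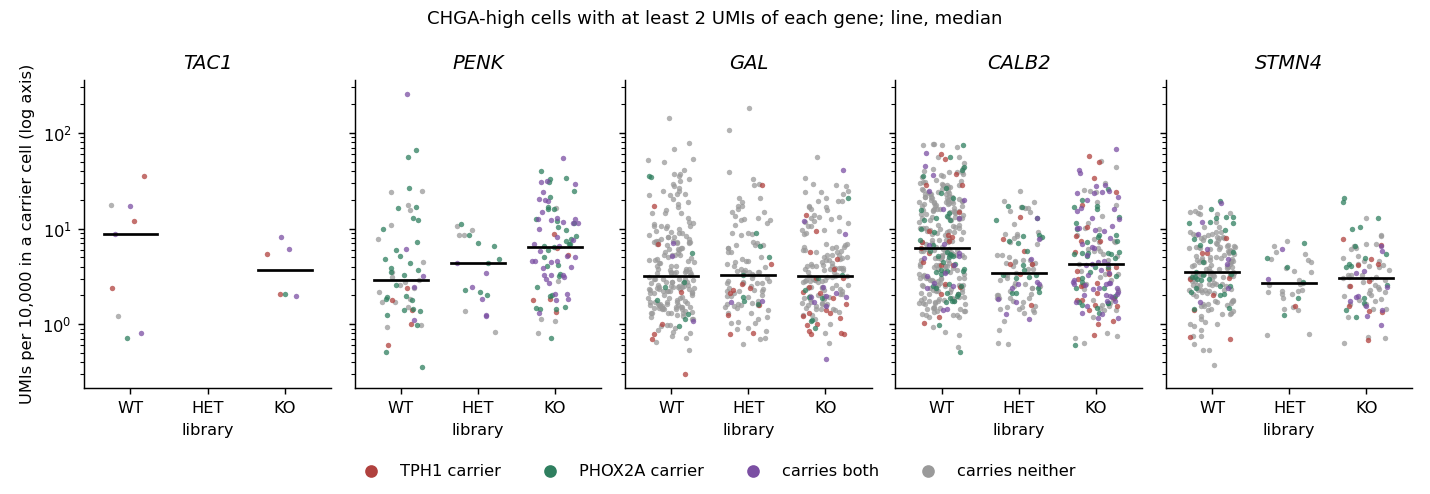
Each point is 1 CHGA-high cell with at least 2 UMIs of the gene, placed by library and by its UMIs of that gene per 10,000 on a log axis; colours mark carriers of TPH1, PHOX2A, both or neither, and the line is the median carrier. TAC1 has 9 WT points, no HET point and 6 KO points, most PENK points are PHOX2A carriers, and most GAL points carry neither gene.

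GAL (chromosome 11, 68683779 to 68691175, plus strand) was the member that was not lowest in HET. Its level was 164 CPM in WT (158 to 170; 2923 UMIs), 171 CPM in HET (162 to 181; 1253 UMIs) and 121 CPM in KO (115 to 127; 1497 UMIs). HET and WT differed by less than the counting error, with HET 1.04-fold higher (0.977 to 1.12). KO was 1.36-fold lower than WT (1.27 to 1.44) and HET 1.42-fold higher than KO (1.31 to 1.53). By share of carriers the order was HET with 21.4% (18.0 to 25.1), KO with 17.4% (15.1 to 19.97) and WT with 14.9% (13.1 to 16.9). Cells with no CHGA carried GAL in 0.895%, 0.601% and 0.589% of cases in the same order. Thinned to 3000 UMIs, the CHGA-high shares were 16.6% in HET, 15.8% in KO and 13.9% in WT, whose intervals overlapped.

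Most GAL carriers in WT and HET were cells with high INS. Of GAL carriers, 62.9% were INS-high in WT, 63.5% in HET and 25.7% in KO, where INS-high cells were fewer. GCG-high cells made up 50.5%, 42.6% and 9.36% of GAL carriers, and in KO another 29.8% were GHRL-high. The share of each class that carried GAL was 22.3%, 35.3% and 39.3% for INS-high cells, 24.3%, 37.7% and 48.5% for GCG-high cells, and, for GHRL-high cells, 6 of 30, 17 of 43 and 51 of 143. In these 3 classes the share was higher in HET and in KO than in WT, although the 30 GHRL-high WT cells gave a wide interval (7.71 to 38.6%). In SST-high cells the share was lower in HET and KO, but the intervals overlapped. It was 26 of 99 in WT (17.9 to 36.1%), 4 of 26 in HET (4.36 to 34.9%) and 1 of 6 in KO (0.421 to 64.1%). GAST-high cells (gastrin) carried GAL in 17 of 77, 14 of 35 and 2 of 8 cases. PHOX2A carriers carried GAL in 7.50%, 12.7% and 9.71% of cases, and cells in none of the hormone, TPH1 and PHOX2A classes did so in 6.73%, 7.30% and 12.1%. TPH1 carriers held GAL in 8.33% of cases in WT, 20.3% in HET and 12.6% in KO, so at full depth in HET they were close to the 21.4% of all CHGA-high cells. Thinned to 3000 UMIs, with 1 UMI required, they held GAL in 6.42%, 10.9% and 8.23% of cases. The thinned shares of all CHGA-high cells were 13.9%, 16.6% and 15.8%, so HET too was lower in TPH1 carriers.

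The order of the libraries in GAL level differed from class to class. In INS-high cells GAL stood at 253 CPM in WT, 306 in HET and 294 in KO, and in GCG-high cells at 303, 350 and 387 CPM. In cells in none of the classes it was 49.7, 38.0 and 99.8 CPM. KO was above WT in those 3 classes. It was also above WT in GHRL-high cells, at 239 against 88.7 CPM, with HET at 387 CPM. INS-high cells with high GCG stood at 545 CPM in KO against 330 in WT, and those without at 235 against 153 CPM. TPH1 carriers were close, at 73.7 against 68.1 CPM. In other classes KO was below WT. It was 60.95 against 76.6 CPM in PHOX2A carriers, 163 against 183 CPM in cells with neither TPH1 nor PHOX2A, and 96.5 against 224 CPM in the 13 KO and 116 WT cells that were GCG-high without being INS-high. The 6 SST-high and 8 GAST-high KO cells (somatostatin and gastrin) stood at 55.1 and 46.1 CPM, against 365 and 202 CPM in WT.

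CALB2 (chromosome 16, 71358713 to 71390438, plus strand) was highest in WT. It stood at 325 CPM in WT (316 to 333; 5802 UMIs), 109 CPM in HET (101 to 116; 796 UMIs) and 155 CPM in KO (148 to 162; 1922 UMIs). HET was 2.99-fold lower than WT (2.78 to 3.23), KO 2.10-fold lower than WT (1.99 to 2.21) and HET 1.43-fold lower than KO (1.31 to 1.55). No single cell held more than 6.09% of a library's CALB2 UMIs. The share of carriers was closer between libraries, at 22.8% in WT (20.6 to 25.1), 19.0% in HET (15.7 to 22.5) and 17.2% in KO (14.9 to 19.8), with 0.343%, 0.192% and 0.129% among cells with no CHGA. After thinning to 3000 UMIs it was 21.0%, 15.8% and 14.7%. The median carrier held 6.28 CALB2 UMIs per 10,000 in WT, 3.39 in HET and 4.26 in KO.

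CALB2 was frequent in several classes of CHGA-high cells. PHOX2A carriers carried it in 41.2% of cases in WT, 43.7% in HET and 46.1% in KO, which differed by less than the counting error. TPH1 carriers carried it in 34.2%, 30.5% and 31.9% of cases, against 22.8%, 19.0% and 17.2% of all CHGA-high cells. INS-high cells that were not GCG-high, a class formed after the values were seen, carried it in 43.4% of cases in WT (118 of 272) and 38.8% in HET (38 of 98), but in 9.78% in KO (9 of 92; interval 4.57 to 17.8). INS-high cells that were also GCG-high carried it less often in WT and HET, at 16.9% and 18.3%, and GHRL-high cells hardly at all, with 0 of 30, 2 of 43 and 2 of 143.

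The level of CALB2 was lower in HET than in WT both in INS-high cells without high GCG and in PHOX2A carriers. In the former it was 714, 244 and 69.1 CPM in WT, HET and KO. In the latter it was 506, 261 and 400 CPM, so KO lay between the other libraries there and lowest in the INS class. PHOX2A carriers held 19.4% of the CALB2 UMIs in WT, 30.3% in HET and 60.7% in KO. In KO cells carrying both TPH1 and PHOX2A the level was 562 CPM, against 476 in WT and 225 in HET, and 58 of these 102 KO cells were carriers.

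STMN4 (chromosome 8, 27235323 to 27258420, minus strand) was spread over several classes. Its level was 67.5 CPM in WT (63.8 to 71.5; 1207 UMIs), 21.0 CPM in HET (17.8 to 24.6; 154 UMIs) and 34.4 CPM in KO (31.2 to 37.9; 427 UMIs). HET was 3.22-fold lower than WT (2.72 to 3.83), KO 1.96-fold lower than WT (1.75 to 2.20) and HET 1.64-fold lower than KO (1.36 to 1.98). The share of carriers ranked the same way, with 13.8% in WT (12.0 to 15.7), 6.51% in HET (4.57 to 8.93) and 8.78% in KO (7.08 to 10.7). Among cells with no CHGA it was 0.0981%, 0.0639% and 0.0429%. Thinning to 3000 UMIs gave 11.8%, 4.62% and 6.85%.

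HET was also the lowest library for STMN4 inside each of 4 classes. PHOX2A carriers held 160 CPM in WT, 40.0 in HET and 51.0 in KO, and cells with neither TPH1 nor PHOX2A 55.2, 19.3 and 29.1 CPM. INS-high cells stood at 63.1, 20.7 and 30.1 CPM and GHRL-high cells at 83.2, 17.1 and 24.5 CPM. In GCG-high cells, by contrast, KO stood at 57.2 CPM, close to the 54.1 CPM of WT, with HET at 15.7 CPM. KO was lowest in INS-high cells without high GCG, at 21.7 CPM against 26.6 in HET and 93.6 in WT, and the 6 SST-high KO cells held no STMN4 UMI. STMN4 carriers were 49.5% INS-high in WT against 40.9% of the other cells, 37.1% against 38.6% in HET and 11.6% against 11.4% in KO. Their median CHGA was 42.3 UMIs per 10,000 in WT, 38.1 in HET and 45.2 in KO, below the 52.5, 59.8 and 70.5 of cells that did not carry it. STMN4 was carried close to the CHGA limit too. Among cells with 10 to 20 CHGA UMIs per 10,000, just inside it, 15.1% of WT and 12.4% of KO cells carried STMN4, and among those with 5 to 10, just outside it, 10.3% and 8.75% did. In HET the shares were 8.33% of only 84 cells inside and 1.69% of 118 cells outside, beside 6.51% of all HET CHGA-high cells. No interval was computed for these bands. In WT the shares inside and outside were 15.5% and 5.95% for CALB2, and 3.67% and 2.38% for GAL.

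**Figure D3:**
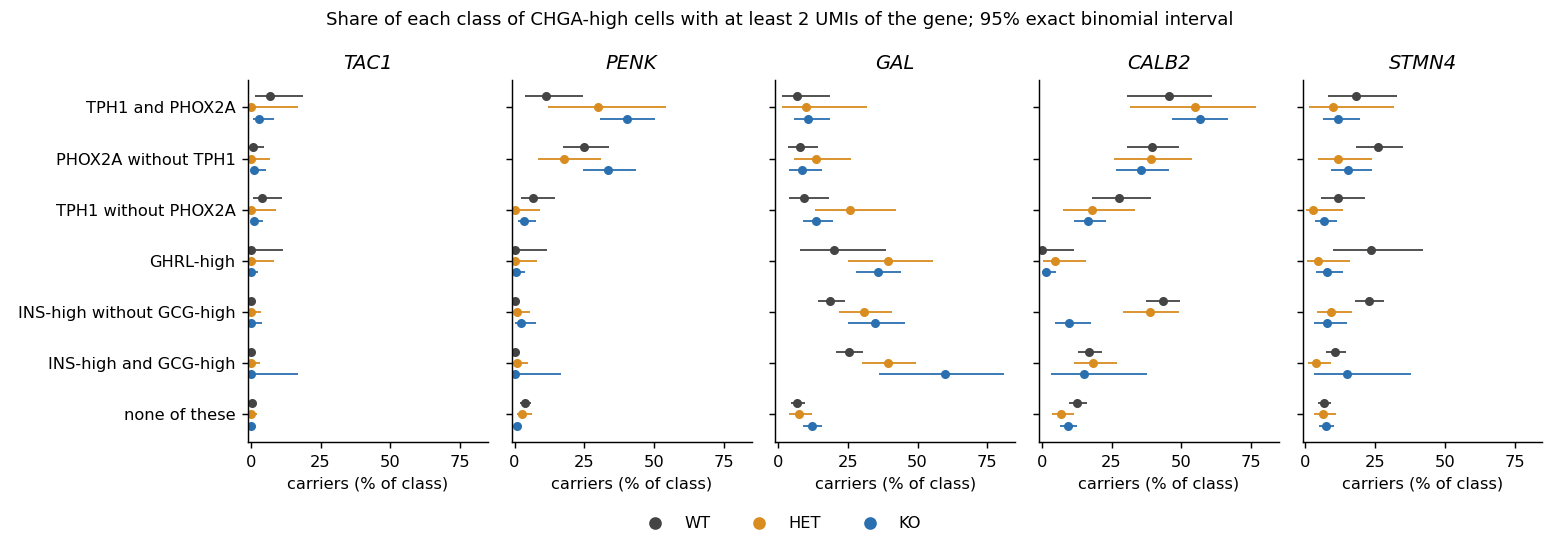
Share of each class of CHGA-high cells that carried each gene, in percent, by library, with 95% exact binomial intervals; hormone classes have at least 50 UMIs of the hormone per 10,000, TPH1 and PHOX2A classes at least 2 UMIs, and a cell can be in more than 1 class. PENK is high in the PHOX2A classes, GAL in the hormone classes, and CALB2 in the PHOX2A classes; INS-high cells without high GCG carried CALB2 in 43.4% of cases in WT, 38.8% in HET and 9.78% in KO.

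TPH1 and PHOX2A themselves overlapped in 44 WT, 20 HET and 102 KO cells. TPH1 was carried by 120 WT, 59 HET and 270 KO cells (8.53%, 10.97% and 27.6%), and PHOX2A by 160, 71 and 206 (11.4%, 13.2% and 21.0%). Cells with no CHGA carried TPH1 in 0.0490%, 0.0639% and 0.730% of cases and PHOX2A in 0.245%, 0.192% and 0.215%. PHOX2A was thus carried by 36.7% of WT, 33.9% of HET and 37.8% of KO TPH1 carriers. The level of TPH1 was 113, 191 and 505 CPM and that of PHOX2A 196, 145 and 231 CPM. PHOX2A overlaps INPPL1 on the other strand, to which the same limit on strand applies as for PENK. Near the carrier limit, 62 WT, 16 HET and 84 KO cells had exactly 1 TPH1 UMI and 63, 16 and 46 exactly 1 PHOX2A UMI.

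**Figure D4:**
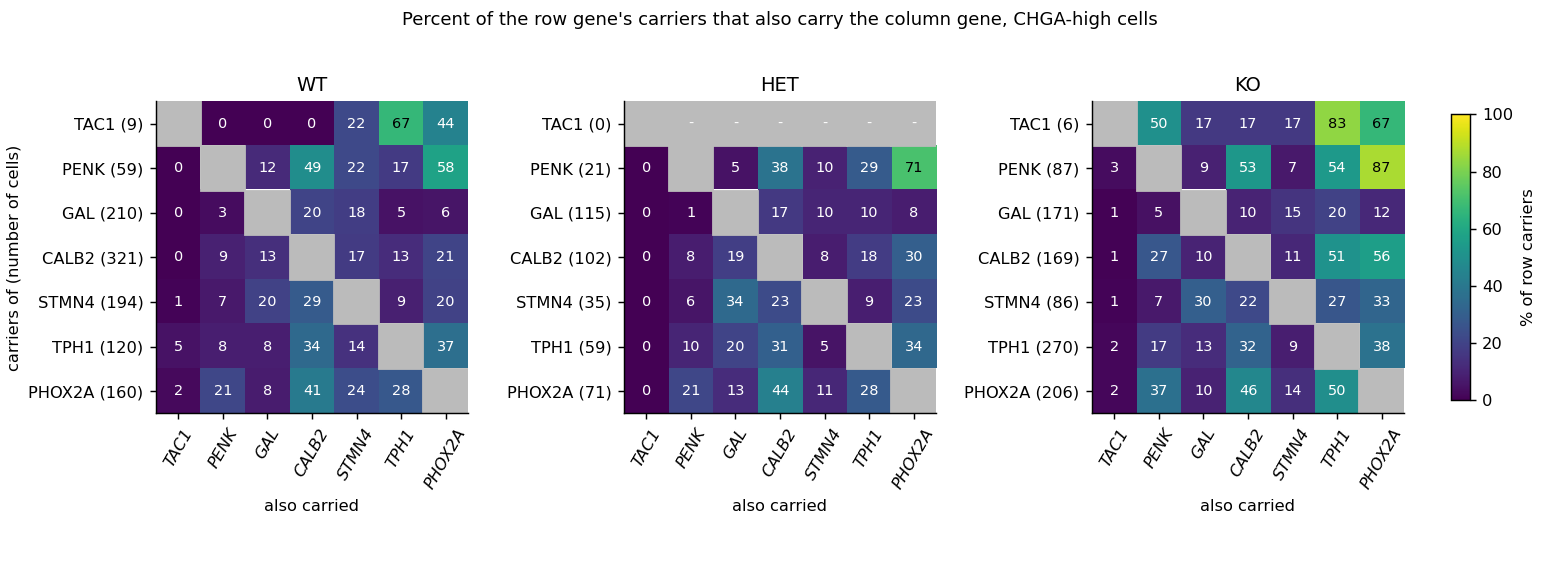
Percent of the carriers of the row gene that also carried the column gene, CHGA-high cells of each library, with the number of row carriers in brackets; grey cells have no value. PHOX2A was carried by 57.6%, 71.4% and 87.4% of PENK carriers in WT, HET and KO, and TPH1 by 66.7% of the 9 WT and 83.3% of the 6 KO TAC1 carriers, of which 44.4% and 66.7% carried PHOX2A.

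PENK and CALB2 were often found together. Of PENK carriers 49.2% in WT, 38.1% in HET and 52.9% in KO carried CALB2, against 21.7%, 18.2% and 13.8% of cells without PENK. GAL and PENK were carried together by 7 WT, 1 HET and 8 KO cells. GAL and CALB2 shared 43, 19 and 17 cells, and CALB2 was no more frequent in GAL carriers (20.5%, 16.5% and 9.94%) than in the other cells (23.2%, 19.6% and 18.8%). STMN4 was carried by 18.1% of WT, 10.4% of HET and 15.2% of KO GAL carriers and by 13.0%, 5.44% and 7.42% of the rest. TAC1 carriers included no PENK, GAL or CALB2 carrier in WT, and 3 PENK carriers of 6 in KO.

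The genes whose values tracked each member across cells were shared in part: PHOX2A and SNCG were among the 5 nearest of both PENK and CALB2. The measure was Pearson's r of log-transformed UMIs per 10,000, averaged over the libraries (1407, 538 and 980 cells) among 11129 genes. These cells share a library and differ in depth, so the values describe the data. For PENK the nearest genes were PHOX2A (mean r 0.405; 0.323 in WT, 0.388 in HET and 0.505 in KO), CNTN1 (contactin 1, a neuronal adhesion protein), SNCG (gamma-synuclein), TBX2 and TLX2, the last another factor of autonomic neurons. CALB2 was nearest to CHRNA3, a nicotinic receptor subunit of autonomic ganglia (mean r 0.350), then HPCA (the calcium sensor hippocalcin), PCSK2, SNCG and PHOX2A. STMN4 was nearest to GNG3, a neuronal G protein subunit (mean r 0.344), then DUSP8, TUBB2B, EEF1A2 and ELAVL3. GAL had weaker neighbours, led by TTR (transthyretin) at 0.276, then INS, C2CD4A, CRH and SEC11C. TAC1, over WT and KO only, had COL5A2 (a collagen chain), TPH1, GATA2, SYT13 and DDC, with mean r of 0.266 or less that rests on its 9 and 6 carriers.

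Set against all genes, the members were counted by a limit of 2-fold with at least 50 CPM in a library, which TAC1 did not reach. Between HET and WT, 3 of the 4 members tested (PENK, CALB2 and STMN4) were at least 2-fold lower, where 1.13% of 3623 genes were, and 0 were at least 2-fold higher, where 0.607% of genes were. With the cell richest in PENK left out of each library, PENK lay within 2-fold. Between KO and WT, CALB2 alone of 4 was at least 2-fold lower, where 3.25% of 3720 genes were, and none was higher, where 1.61% were. With doublets kept, or in plain CPM, CALB2 also lay within 2-fold. Without the highest cell of each library PENK was 2.52-fold higher in KO, past the limit. Between HET and KO, PENK alone of 3 tested was at least 2-fold lower, where 0.56% of 3569 genes were, and none was higher, where 1.37% were. The median log2 ratio of the tested members was -1.50 for HET against WT and -0.71 for KO against WT, beside -0.05 and -0.005 over all genes. HET and KO were both set against the same WT library, and the members were chosen for these levels, so nothing is read from the counts.

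Among other genes of these pathways with at least 50 CPM in a library, few were 2-fold apart between HET and WT. Genes below that limit were not counted, and some of them differed by more than 2-fold. In WT and HET, GATA3 stood at 0.392 and 11.7 CPM, NPY at 14.9 and 3.27, and SLC18A2 at 16.2 and 7.64. Others below the limit lay within 2-fold, such as CALB1 at 26.5 and 24.8 CPM. The receptors for tachykinins, opioids and galanin stayed under 50 CPM for all 10 genes, with OPRD1 (delta opioid receptor) at 13.2 CPM in WT, 10.8 in HET and 4.11 in KO and TACR1 (the substance P receptor) at 5.26, 9.14 and 15.5 CPM. Of 8 peptide processing genes, 0 in HET passed the limit (median log2 ratio to WT -0.43). In KO only SCG5, the PCSK2 chaperone, did, with 295 CPM against 1340 in WT, while the list's median was -0.43. PCSK2 and PCSK1, the convertases, were at 185 and 123 CPM in WT, 149 and 109 in HET, and 213 and 166 in KO.

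Of 22 other neuropeptide genes, 4 were tested in each comparison with WT. CRH, the corticotropin-releasing hormone gene, was higher in both edited libraries, at 60.7 CPM in WT, 451 in HET and 739 in KO. NTS (neurotensin) was lower in both, at 779, 380 and 82.4 CPM, and CCK (cholecystokinin) lower in KO alone by this limit, at 87.0, 88.5 and 23.0 CPM. The medians of the tested genes were -0.25 in HET and -0.999 in KO. None of the 4 tested calcium-binding genes passed in either library (medians -0.12 and -0.21), and SCGN, a relative of CALB2, stood at 619, 543 and 434 CPM.

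None of 7 tested stathmin and tubulin genes passed either (medians -0.32 and 0.26). STMN2, another neuronal stathmin, was at 1277, 1148 and 1576 CPM, and STMN1, the widely expressed stathmin, at 722, 874 and 1032 CPM. Of 5 tested enterochromaffin genes, 0 passed in HET (median -0.04), and in KO TPH1 was 4.49-fold higher (4.27 to 4.72) and GCH1, which makes a cofactor of TPH1, was lower at 104 CPM against 221 in WT (median 0.40). Of the autonomic neuron genes, 0 of 8 tested passed in HET (median -0.39), and in KO 1 of 9, CHRNA3, was higher, at 142 CPM against 56.3 CPM in WT (median 0.11).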

How the data were processed

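The authors deposited raw UMI counts, whole numbers in a gene by barcode matrix for each library. Per the file headers these came from Cell Ranger 6.1.2. GRCh38, Cell Ranger and Seurat are named in the submitters' processing notes. Of 33538 gene identifiers 33484 were found in GENCODE 29. The libraries held 9667 (WT), 9628 (HET) and 9726 (KO) barcodes and 140068492, 136834433 and 145948590 UMIs. Filters of 1000 UMIs or more, 500 genes or more and a mitochondrial share up to 20% left 8662, 8468 and 8785. Scrublet's automatic threshold (scanpy 1.11.5, Python 3.11.15) marked 0 doublets in each and was not relied on. Instead the top 8% of scores were removed from each library, including 242, 100 and 142 CHGA-high cells. Pairs of libraries shared 12 to 26 kept barcodes, none CHGA-high in both.

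Counts were summed over CHGA-high cells and scaled to CPM, relative to the pooled total of the cells, by edgeR 4.0.16 in R 4.3.3, using TMM factors. Levels within a class use the library's factor, whereas marker sums and levels in cells with no CHGA UMI are plain CPM. Intervals are 95% exact Poisson for levels, exact (Clopper-Pearson) binomial for shares and conditional binomial for ratios. A level of 0 was set against a floor of 3 counts. Thinning drew 3000 UMIs per cell and left out 101 WT, 19 HET and 89 KO CHGA-high cells with fewer. The 2-fold count was checked on simulated data, with counts drawn independently for each gene from pooled sums. That check does not cover genes whose UMIs lie mostly in a few cells.

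The 5 members, TPH1, PHOX2A and CHGA were always named, genes of the fixed lists could be named as examples at 5 CPM or more, and the 5 genes that correlated best with each member (seen in at least 5% of cells of each library) were named. The members, lists and limits were chosen with earlier results of these data known. Alternatives changed the CHGA limit, doublet removal, cell filters, scaling (plain CPM, DESeq2 1.42.0 size factors), the minimum level, free RNA, class weights, the carrier limit and thinning.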

Additional observations from a re-analysis of the deposited data

How the results depend on the processing

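No paired analysis was possible because each genotype had 1 library. The direction of TAC1 between KO and WT turned, to a log2 ratio of 0.19 from -1.14, when no doublets were removed and under Scrublet's automatic threshold, which keep the same cells. TAC1 then had 150, 5 and 116 UMIs in WT, HET and KO. PENK between KO and WT came to -0.07 with TPH1 carriers, PHOX2A carriers and other cells weighing the same, from 0.76. In that setting the WT cell richest in PENK counted in both carrier classes. Over 12 alternatives the log2 ratio of HET to WT ran from -2.08 to -0.91 for PENK, -1.71 to -1.29 for CALB2, -1.94 to -1.62 for STMN4 and -0.01 to 0.19 for GAL. That of KO to WT ran from -1.12 to -0.67 for CALB2, -1.32 to -0.86 for STMN4 and -0.61 to -0.14 for GAL. Omitting the cell with the most UMIs was chosen after seeing the data. Members at least 2-fold lower in KO than in WT numbered 2 with a CHGA limit of 20 and with no minimum beyond 1 count, and 0 with doublets kept, under the automatic threshold and in plain CPM. Genes at least 2-fold lower and higher in HET numbered 173 and 85 at 10 CPM, and 4033 and 2956 with no minimum. For KO they numbered 461 and 209, and 4232 and 3148, since lower minimums test more genes. Cells with at least 1 member were 60.5% in WT, 58.6% in HET and 56.7% in KO with 1 UMI required, and 38.3%, 32.9% and 32.3% with 3. They were 40.8%, 36.1% and 37.9% with a CHGA limit of 5, 47.6% in WT with 20, and 48.2% in WT with stricter cell filters. Thinning to 3000 UMIs gave 35.1% in HET and 38.0% in KO, and to 5000 UMIs 49.6% in WT and 46.6% in KO. Among TPH1 carriers the share was 68.1%, 68% and 64.97% with 1 UMI, 38.8% in KO with 3, and 38.2% in HET and 45.5% in KO thinned to 3000. Among PHOX2A carriers it was 78.5% in WT and 75.9% in HET with 1 UMI, 49.2% in HET and 61.8% in KO with 3, and 49.3% and 62.4% thinned. CHGA-high cells were 20.8%, 8.42% and 14.1% of WT, HET and KO cells with a limit of 5, and 14.6%, 5.83% and 10.4% with 20. They were 19.0% of WT and 7.53% of HET cells with doublets kept or under the automatic threshold, and 15.4%, 5.07% and 7.02% under the stricter filters. The cause of these shifts was not tested beyond what each limit does by construction. The other 103 values for counts, shares with at least 1 member and CHGA-high shares stayed within their intervals, or within 1.5 times for counts. Of the values for single genes (ratios, carrier shares and overlap shares), 434 stayed within their intervals, 77 moved outside and 2 reversed. The reversals are those of TAC1 given above. GAL carriers in WT, for example, went from 14.9% to 27.0% with 1 UMI required. With few carriers, TAC1 in each library and PENK in HET are limited by counting, and differences between single libraries by the lack of replicates.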

Other observations

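Part of the PENK signal lay outside the CHGA-high cells. Those cells held 56.0% of all PENK UMIs of kept cells in WT (1851 UMIs), 51.5% in KO (2365 UMIs) and 18.0% in HET (890 UMIs). For GAL the shares were 87.7% in WT, 72.7% in KO and 66.3% in HET, and for CALB2 90.2%, 92.6% and 75.6%. CHGA-high cells were themselves 17.7% of WT, 12.1% of KO and 6.91% of HET cells, whose part in these shares was not tested. Cells with no CHGA UMI held 183 PENK UMIs in WT, 178 in HET and 308 in KO. Cells with some CHGA below the limit, which were not profiled, stood at 8.79, 8.38 and 10.4 CPM of PENK. Those with no CHGA stood at 6.41, 4.13 and 8.83 CPM. Cells with no CHGA UMI included 25 PENK carriers in WT, 24 in HET and 46 in KO. In these the 11 endocrine markers summed to 39.8, 45.4 and 49.6 CPM, against 21262, 12685 and 17035 CPM in the CHGA-high PENK carriers. CHGA is among the 11 and defined both groups, so part of that contrast was fixed in advance. Their duct markers (KRT19, SOX9, CFTR, KRT7 and SPP1) summed to 1966, 3506 and 2092 CPM, beside 2122, 3161 and 1733 CPM in all cells with no CHGA. Their autonomic neuron markers summed to 7.46, 7.57 and 2.54 CPM, against 1405, 1601 and 1824 CPM in the CHGA-high PENK carriers.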
